A study of Macaca fascicularis with 23 samples.

Results

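A group of 10 genes of the Eph receptor and ephrin families was followed in cynomolgus monkey (Cm) pluripotent stem cells (PSCs): the EphA receptors EPHA1, EPHA2, EPHA3 and EPHA7, the EphB receptors EPHB1, EPHB2, EPHB3 and EPHB4, and the ephrin-A ligands EFNA1 and EFNA4. They were chosen by gene symbol, and 10 of 10 were found among the 8415 genes analysed. EPHB4 is listed there only as LOC101866702 and was matched by its gene ID. Expression was measured in 23 libraries with SC3-seq, a method that counts reads from transcript 3′ ends after cDNA amplification. The unit is RPM, mapped reads of a gene scaled to a fixed total of mapped reads in each library. Of these, 21 were from PSCs, and each of 7 lines was sampled once in every one of 3 media. CMK6, TRSK and CMK9 are ESC lines. The iPSCs were derived with episomal vectors from 1 foetus, lines iPS-L3 and iPS-L6 starting from its liver cells, and lines iPS-S6 and iPS-S12 from its stomach. Primed PSCs were grown in bFGF/KSR medium. Naïve-like PSCs were grown in K5cLD medium with the chemicals Gö6983, forskolin, kenpaullone, CHIR99021 and SB590885, with LIF and with doxycycline (Dox), which switches on the transgenes for human KLF2 and NANOG carried in the cells. Differentiated cells were kept in K5c medium with the same chemicals and without LIF and Dox, and still carried the transgenes. The last 2 libraries were of cultured liver and stomach cells. With Dox removed and LIF kept, the paper still detected some transgenic NANOG mRNA in TRSK and iPS-S6, so this loss may be incomplete there. LIF withdrawal and loss of the transgene products cannot be told apart in these groups, nor can medium and transgene expression between primed and naïve-like PSCs.

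Eph receptors are the largest family of receptor tyrosine kinases, and their ligands, the ephrins, are themselves bound to the cell surface, so signalling needs contact between cells. EphA receptors mainly bind the lipid-anchored ephrin-A ligands and EphB receptors the transmembrane ephrin-B ligands, and a signal can pass into the receptor cell and back into the ligand cell. The family is known for repulsion and sorting of cells at tissue borders, axon guidance and blood vessel patterning. EPHA2 is the EphA receptor typical of epithelial cells, and EFNA1 is its best known ligand.

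The libraries held between 861000 and 7986000 reads with a median of 3004000, so that 3 reads were worth between 0.376 and 3.49 RPM. A value under 3 reads was read as not detectable at that depth. This floor covers counting error only. Values were tested as log2(RPM + 1) with limma over the genes above 4 on that scale in at least 1 PSC library, with Benjamini-Hochberg adjustment over all 2776 such genes. Of the 10 members, 7 passed this filter and EPHA1, EPHA3 and EPHB2 did not. EPHB1 passed through 1 library alone, differentiated iPS-L6, and EPHB3 through 4 primed libraries alone, so each was tested only because of the group where it was high. EFNA1 passed through 5 primed and 2 naïve-like libraries and no differentiated one. Such members were bound to differ to some degree, and their values without the filter are given below. The summed RPM of 7 pluripotency genes was 951 to 2342 in primed, 1693 to 2642 in naïve-like and 1176 to 2257 in differentiated libraries, but the sum was carried by SOX2, LIN28A and LIN28B. From naïve-like to differentiated libraries the median of POU5F1 went from 289 to 20.2 RPM, that of DPPA4 from 156 to 29.3 and that of CRIPTO from 104 to 0.999, while SOX2 had medians of 470 and 471 RPM. The row taken as L1TD1, listed as LOC102143050 and matched by its gene ID, was at 0 in every primed and differentiated library. It was at most 1.75 RPM in a naïve-like one. Whether this row holds all reads of L1TD1 was not tested, so its absence from these cells cannot be read from it. The sum was 1.76 in the liver and 0.973 in the stomach library. Of 5 hepatocyte genes, ALB, APOA2, AFP, TF and AHSG, all were at 0 in the liver library, which is therefore called cultured liver cells. The stomach library had 447 RPM of gastric epithelial genes, with TFF1, TFF2 and CLDN18 detected and PGC at 0. In bulk RNA, fewer cells that express a gene and less RNA of it per cell cannot be told apart. Markers of other cell types also moved between media. KDR and TIE1, of endothelial cells, summed to 4.70 to 48.1 RPM (median 24.7) in primed, 1.11 to 11.2 (median 4.91) in naïve-like and 0 to 5.06 (median 0) in differentiated libraries. KDR carried this sum, and TIE1 had a median of 0 RPM in each medium and at most 1.14 RPM in any PSC library. AFP, the 1 hepatocyte gene of the 5 that passed the filter, had medians of 45.3, 9.44 and 29.8 RPM in primed, naïve-like and differentiated libraries. CLDN4, of epithelia, had medians of 9.99, 2.22 and 4.73 RPM, NES, of neural progenitors, 348, 194 and 323 RPM, and the mesenchymal gene COL1A2 75.5, 25.6 and 101 RPM in the same order. The 4 mesenchymal genes did not move together: TWIST1 had medians of 7.08, 25.4 and 6.66 RPM, S100A4 16.3, 2.34 and 1.27 RPM, and PDGFRA 4.12, 0.379 and 0.633 RPM. The part of these cells in the changes below was not tested.

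**Figure D1:**
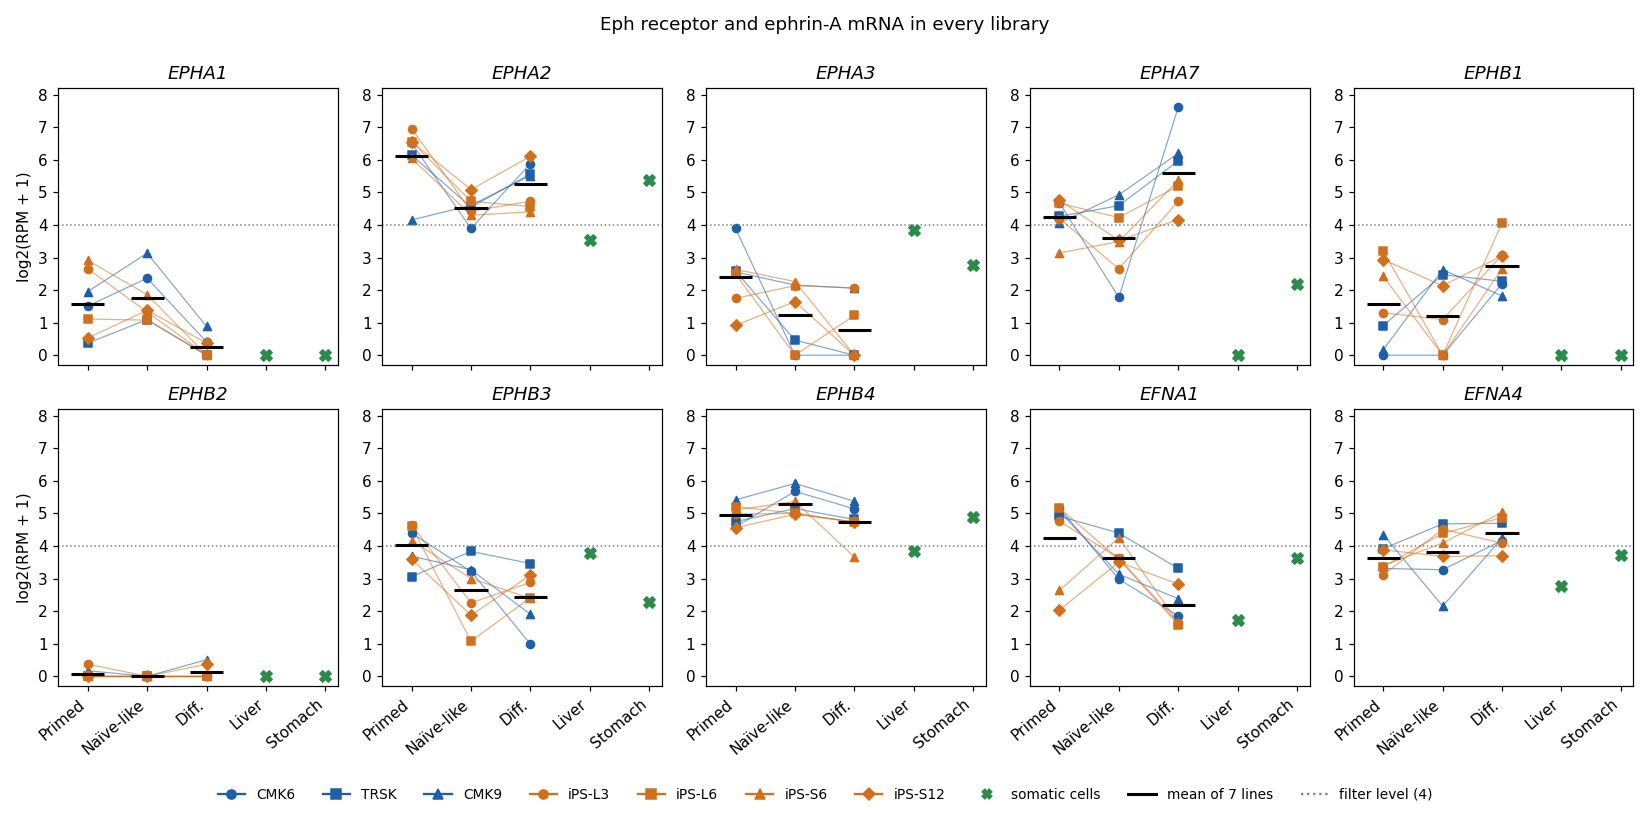
Expression of the 10 members in all 23 libraries, as log2(RPM + 1). Each point is 1 library, thin lines join the 3 libraries of 1 cell line, blue is ESC and orange iPSC, black bars are means of 7 lines, green crosses are the somatic libraries and the dotted line is the filter level of 4. EPHA2 and EPHB3 were lower in the naïve-like than in the primed condition in 6 of 7 lines, EPHA7 rose in 7 of 7 lines from naïve-like to differentiated, and EPHB2 stayed near 0 in all libraries.

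Of the EphA receptors, EPHA2 mRNA was lower in the naïve-like state. Primed libraries had 89.8 RPM in CMK6, 69.7 in TRSK, 16.8 in CMK9, 122 in iPS-L3, 93.0 in iPS-L6, 65.1 in iPS-S6 and 93.0 in iPS-S12. Naïve-like libraries had 13.8 RPM in CMK6, 22.4 in TRSK, 23.3 in CMK9, 20.4 in iPS-L3, 25.5 in iPS-L6, 18.7 in iPS-S6 and 32.9 in iPS-S12. Apart from CMK9, every primed value lay above every naïve-like value. On the log2 scale the mean was 6.13 ± 0.92 (SD, n = 7) in primed and 4.51 ± 0.37 in naïve-like PSCs, and EPHA2 fell by 1.62 (SE 0.34, limma adjusted p = 0.00186). CMK9 was the 1 line without the fall. Differentiated libraries ran from 20.2 RPM in iPS-S6 to 68.1 in iPS-S12 with a median of 44.7, overlapping both other groups. The mean of 5.25 ± 0.68 lay between the other 2 means. It was 0.74 (SE 0.34) above the naïve-like mean, with 6 of 7 lines higher and limma adjusted p = 0.154, and its difference from the primed mean was -0.88 (SE 0.34), with 6 of 7 lines lower and limma adjusted p = 0.0850. The low primed CMK9 library bore on the difference from primed, which without it was -1.21 with a limma adjusted p of 0.0026. That library is not part of the difference from naïve-like and enters only the spread estimated over all groups together. With it left out, the difference from naïve-like had a limma adjusted p of 0.0445.

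EPHA7, a receptor with roles in brain patterning, was higher after LIF and Dox were withdrawn. Naïve-like libraries had 2.42 RPM in CMK6, 23.1 in TRSK, 29.4 in CMK9, 5.29 in iPS-L3, 17.7 in iPS-L6, 10.2 in iPS-S6 and 10.5 in iPS-S12. Differentiated libraries had 195 RPM in CMK6, 61.6 in TRSK, 72.3 in CMK9, 25.5 in iPS-L3, 35.6 in iPS-L6, 40.3 in iPS-S6 and 17.0 in iPS-S12. The groups overlapped across lines, and within each of the 7 lines the differentiated value was the higher. EPHA7 rose by 2.01 on the log2 scale (SE 0.46, limma adjusted p = 0.00497), from a mean of 3.60 ± 1.11 to 5.60 ± 1.12 (SD, n = 7). CMK6 changed most, and without this line the rise was 1.37 (limma adjusted p = 0.0286). Primed libraries ran from 7.82 RPM in iPS-S6 to 26.1 in iPS-S12 with a median of 18.2 (mean 4.25 ± 0.56). The naïve-like minus primed difference was -0.66 (SE 0.46, limma adjusted p = 0.346). The differentiated mean was 1.35 higher than the primed (SE 0.46), with 6 of 7 lines higher and iPS-S12 lower. That difference had a limma adjusted p of 0.0540, 0.0409 with the cell line as a block and 0.0241 without line iPS-S12, so its side of the threshold depends on the fit.

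EPHA1 and EPHA3 were low and were fitted only without the filter, over 5981 genes. In that fit 7.62% of genes were called in either direction between primed and naïve-like PSCs, 5.7% between naïve-like and differentiated cells and 5.27% between primed and differentiated cells. EPHA1 was at 0.29 to 6.51 RPM in primed libraries (median 1.85) and at 1.11 to 7.77 RPM in naïve-like libraries (median 1.60). In differentiated libraries it was at 0 in TRSK, iPS-L3, iPS-L6 and iPS-S6, 0.29 RPM in iPS-S12, 0.33 in CMK6 and 0.84 in CMK9. The naïve-like and differentiated groups did not overlap, which held for 1.54% of the 5981 genes in this direction. These values rest on few reads, 1 to 12 in a naïve-like and 0 to 4 in a differentiated library, and 6 of the 7 differentiated libraries were under 3 reads. EPHA1 fell by 1.51 on the log2 scale from naïve-like to differentiated (SE 0.39, limma adjusted p = 0.0244). The adjusted p rose to 0.105 without line CMK6, 0.0509 without iPS-L3, 0.0564 without iPS-L6, 0.0546 without CMK9 and 0.0578 without iPS-S6. It was 0.0369 without TRSK, 0.0468 without iPS-S12 and 0.0119 with the line as a block. The differentiated minus primed difference was -1.34, lower in 7 of 7 lines, with a limma adjusted p of 0.0502, and of 0.0221 with the line as a block. It was 0.0471 without line TRSK and 0.0486 without iPS-S12. With each other line left out the limma adjusted p was 0.0509 (CMK9), 0.109 (CMK6), 0.109 (iPS-L6), 0.193 (iPS-L3) and 0.196 (iPS-S6). The naïve-like and primed means differed by 0.17 (limma adjusted p = 0.858).

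EPHA3, a receptor typical of mesenchymal and neural tissue, had its highest PSC value in primed CMK6 at 13.8 RPM. The other primed libraries lay between 0.89 and 5.21 RPM. Naïve-like libraries lay between 0 and 3.80 RPM (median 2.14) and differentiated libraries between 0 and 3.19 RPM, with 4 of the 7 at 0. The groups overlapped. The naïve-like minus primed difference of -1.17, the differentiated minus naïve-like difference of -0.47 and the differentiated minus primed difference of -1.64 did not pass the test (limma adjusted p = 0.192, 0.672 and 0.0681).

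Among the EphB receptors, EPHB3, known with EPHB2 for positioning cells along the intestinal crypt, was highest in primed PSCs. Primed libraries had 20.0 RPM in CMK6, 7.35 in TRSK, 11.9 in CMK9, 24.1 in iPS-L3, 23.2 in iPS-L6, 16.9 in iPS-S6 and 11.1 in iPS-S12. Naïve-like libraries had 8.31 RPM in CMK6, 13.3 in TRSK, 8.64 in CMK9, 3.78 in iPS-L3, 1.11 in iPS-L6, 7.01 in iPS-S6 and 2.67 in iPS-S12. The iPS-L6 value rests on 1 read, under the floor of 3 reads. The low primed and high naïve-like value of TRSK made the groups overlap, and the other 6 lines were lower in the naïve-like state. EPHB3 fell by 1.37 on the log2 scale (SE 0.41, limma adjusted p = 0.0232), from 4.02 ± 0.59 to 2.65 ± 0.95 (SD, n = 7). EPHB3 entered the test only through its primed values, and this call was near the threshold: the limma adjusted p was 0.0509 with no filter on low genes, 0.0954 without line iPS-L3, 0.112 without iPS-L6, 0.0557 without iPS-S6 and 0.0541 without iPS-S12. Differentiated libraries ran from 0.98 RPM in CMK6 to 10.0 in TRSK with a median of 4.33 (mean 2.45 ± 0.83). Against primed EPHB3 fell by 1.57 (SE 0.41, limma adjusted p = 0.0120), in 6 of 7 lines, with an adjusted p of 0.0316 with no filter and 0.0594 without line CMK6. The same limit on how it entered the test holds here. The differentiated minus naïve-like difference was -0.20, with a 95% interval from -1.05 to 0.65 (limma adjusted p = 0.817).

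EPHB4, the receptor of venous endothelium, was detected in all 23 libraries and had the smallest SD of the 7 tested members in primed PSCs. It ran from 22.6 to 41.7 RPM in primed (median 30.6), from 30.4 to 59.6 RPM in naïve-like (median 34.5) and from 11.7 to 40.5 RPM in differentiated libraries (median 25.7). All groups overlapped. The means were 4.94 ± 0.32 for primed PSCs, 5.30 ± 0.37 for the naïve-like state and 4.74 ± 0.54 after differentiation (SD, n = 7). Naïve-like values were higher than primed values in 6 of 7 lines by a mean of 0.35 (SE 0.22, limma adjusted p = 0.275). Differentiated values were lower than naïve-like values in 7 of 7 lines, but the mean difference of -0.56 (SE 0.22) did not pass the test (limma adjusted p = 0.0969). The differentiated minus primed difference was -0.20, with a 95% interval from -0.66 to 0.25 (limma adjusted p = 0.589).

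EPHB1, a receptor of axon guidance, and EPHB2 were at low levels. EPHB1 had 0 RPM in CMK6, 0.88 in TRSK, 0.13 in CMK9, 1.47 in iPS-L3, 8.13 in iPS-L6, 4.34 in iPS-S6 and 6.64 in iPS-S12 in primed medium. Naïve-like libraries ran from 0 to 5.18 RPM (median 1.13), with CMK6, iPS-L6 and iPS-S6 at 0. Differentiated libraries ran from 2.53 RPM in CMK9 to 15.6 in iPS-L6 (median 5.31), and 5 to 47 reads lay behind these values. The groups overlapped. The differentiated mean was 1.54 above the naïve-like mean (SE 0.58, limma adjusted p = 0.0772), with 5 of 7 lines higher. Without line CMK9 the adjusted p was 0.0394. It was 1.17 above the primed mean (SE 0.58, limma adjusted p = 0.185) in 7 of 7 lines. The naïve-like minus primed difference was -0.37 (limma adjusted p = 0.702). EPHB2 had at most 2 reads in any library, so that no difference was detectable at this depth, and without the filter its limma adjusted p was 0.476 or more in each comparison of media.

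Of the ligands, EFNA1 was lowest in differentiated cells. Primed libraries had 34.8 RPM in CMK6, 29.1 in TRSK, 32.6 in CMK9, 26.2 in iPS-L3, 34.9 in iPS-L6, 5.21 in iPS-S6 and 3.10 in iPS-S12. Naïve-like libraries had 6.92 RPM in CMK6, 20.1 in TRSK, 7.77 in CMK9, 11.3 in iPS-L3, 11.1 in iPS-L6, 18.1 in iPS-S6 and 10.3 in iPS-S12. The iPSC lines from stomach cells, iPS-S6 and iPS-S12, were low in primed medium and higher in the naïve-like state, whereas the other 5 lines went the opposite way, a split by source tissue that was noted after the values were seen and was not tested. Over the 7 lines the mean was 4.25 ± 1.33 in primed and 3.64 ± 0.53 in naïve-like PSCs (SD, n = 7). The difference was -0.61 with a 95% interval from -1.54 to 0.33 (limma adjusted p = 0.377). Differentiated libraries had 2.61 RPM in CMK6, 8.92 in TRSK, 4.22 in CMK9, 2.13 in iPS-L3, 2.00 in iPS-L6, 2.12 in iPS-S6 and 6.14 in iPS-S12 (mean 2.18 ± 0.68). The values of iPS-L3 and iPS-S6 rest on 2 reads each, under the floor of 3 reads. Differentiated TRSK reached into the naïve-like range, and within each of the 7 lines the differentiated value was the lower. EFNA1 fell by 1.46 from naïve-like to differentiated (SE 0.45, limma adjusted p = 0.0320). The limma adjusted p was 0.0743 with no filter, 0.0652 without line CMK6, 0.0502 without TRSK, 0.0929 without iPS-L3, 0.0902 without iPS-L6, 0.0834 without iPS-S6 and 0.0588 without the differentiated iPS-S6 library alone. Against primed EFNA1 fell by 2.07 (SE 0.45, limma adjusted p = 0.00317), in 6 of 7 lines, with iPS-S12 the exception, and the adjusted p was 0.0102 with no filter.

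EFNA4 ran from 7.65 to 19.3 RPM in primed (median 9.55), from 3.45 to 24.6 RPM in naïve-like (median 16.1) and from 11.98 to 31.8 RPM in differentiated libraries (median 17.9). The groups overlapped, and naïve-like CMK9 was the lowest library. The means were 3.62 ± 0.44, 3.83 ± 0.89 and 4.40 ± 0.48 (SD, n = 7). The differentiated mean was 0.78 above the primed mean (SE 0.32), with 5 of 7 lines higher and a limma adjusted p of 0.111, or 0.0302 without line CMK9. It was 0.57 above the naïve-like mean in 6 of 7 lines (limma adjusted p = 0.267), and the naïve-like and primed means differed by 0.21 (limma adjusted p = 0.701). Reads were counted without regard to strand, and whether transcripts of other genes overlap EFNA1 or EFNA4 was not tested.

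**Figure D2:**
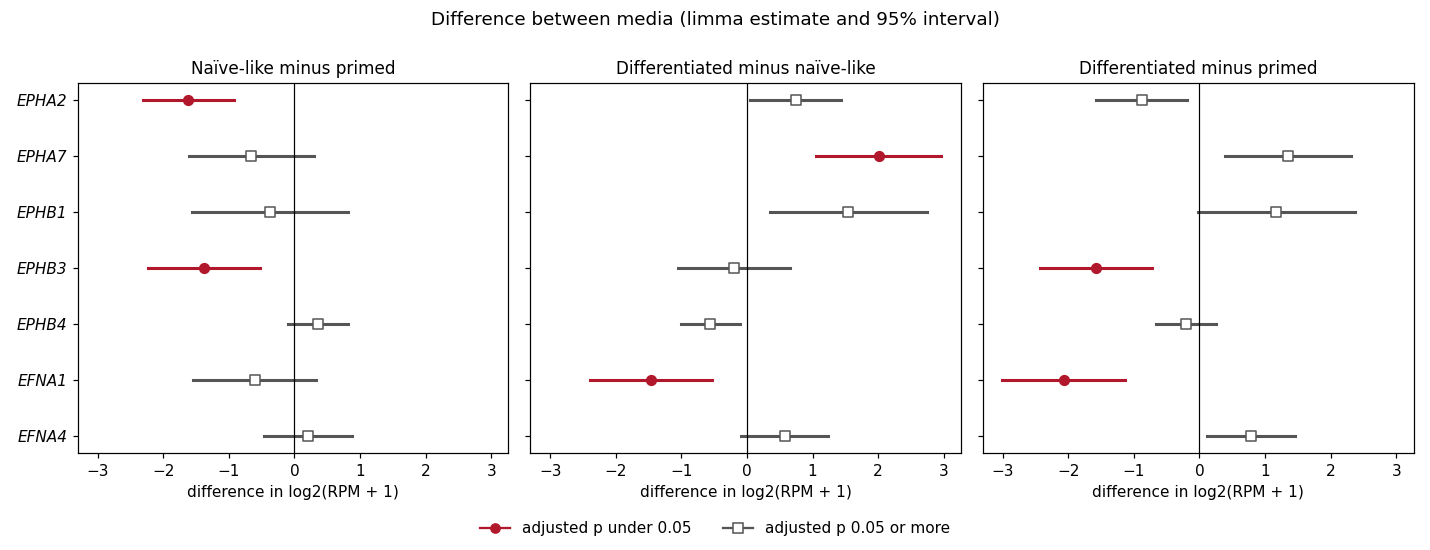
Differences between media for the 7 tested members, as limma estimates on the log2(RPM + 1) scale with 95% intervals, 7 lines per condition. Filled red circles have an adjusted p under 0.05 and open grey squares do not. EPHA2 and EPHB3 lie to the left for naïve-like minus primed, EPHA7 to the right and EFNA1 to the left for differentiated minus naïve-like, and EPHB3 and EFNA1 to the left for differentiated minus primed.

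Counted together, 0 of the 7 tested members rose and 2 fell from primed to naïve-like PSCs, where 11.1% of all tested genes rose and 8.18% fell. With each library centred on its own median, 218 genes rose and 261 fell in this comparison against 307 and 227 as deposited, and the same 2 members were called. From naïve-like to differentiated, 1 rose (EPHA7) and 1 fell (EFNA1), against 6.41% and 7.71% of all genes. From primed to differentiated, 0 rose and 2 fell (EPHB3 and EFNA1), against 6.27% and 7.13%. With 7 members, some of which entered through the group where they were high, such counts say little about the family as a whole. The median difference of the 7 was -0.61, 0.57 and -0.20 in these comparisons, and that of all tested genes was 0.06, -0.02 and 0.05. The 3 comparisons share libraries, so they do not bear on each other independently.

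ESC and iPSC lines were compared within each medium, 3 lines against 4. The iPSC lines share 1 foetus, so the kind of line and the donor cannot be told apart. The paper gives CMK6 and TRSK as male and CMK9 and the foetus as female, so sex is not balanced between the kinds either. None of the 7 members passed the test in primed, naïve-like or differentiated cells, where limma called 1.59%, 0.72% and 0.612% of all tested genes. At an unadjusted p under 0.05 there were 3 members in primed medium, 1 among naïve-like PSCs and 2 after withdrawal, against 438, 281 and 348 of all tested genes. EPHB1 in primed medium was at 0, 0.13 and 0.88 RPM in the ESC lines and at 1.47, 4.34, 6.64 and 8.13 RPM in the iPSC lines, and these groups did not overlap. In the same order these values rest on 0, 1 and 3 reads in the ESC lines and 5, 10, 15 and 7 in the iPSC lines. The ESC lines CMK6 and CMK9 were under the floor of 3 reads. Every ESC library lay below every iPSC library in primed medium for 6.95% of all tested genes. The ESC minus iPSC difference was -2.10 on the log2 scale (SE 0.67, limma adjusted p = 0.118). EPHA7 in differentiated cells was at 61.6, 72.3 and 195 RPM in the ESC lines and at 17.0, 25.5, 35.6 and 40.3 RPM in the iPSC lines, again without overlap. Every ESC library lay above every iPSC library among differentiated cells for 6.56% of all tested genes. The ESC mean was 1.73 higher (SE 0.59, limma adjusted p = 0.200). The other differences at that level were EFNA1, 1.4 higher in primed ESC lines (limma adjusted p = 0.248), where the low iPSC values were those of iPS-S6 and iPS-S12, EPHA2, -0.93 in primed ESC lines (limma adjusted p = 0.304), EPHB3, 1.39 in naïve-like ESC lines (limma adjusted p = 0.312), and EPHB4, 0.64 in differentiated ESC lines (limma adjusted p = 0.322).

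The difference between ESC and iPSC lines in the change from 1 medium to another was tested as an interaction. No member passed in any of the 3 changes, and 0% of the 2776 genes did, while 133, 109 and 262 genes had an unadjusted p under 0.05 for naïve-like minus primed, differentiated minus naïve-like and differentiated minus primed. The members at that level were EPHB1, whose naïve-like minus primed change was 3.0 higher in ESC than in iPSC lines (limma adjusted p = 0.910) and whose differentiated minus naïve-like change differed by -2.01 (limma adjusted p = 0.999), EPHB3, with differences of 1.93 (limma adjusted p = 0.910) and -1.97 (limma adjusted p = 0.999) in these changes, and EPHA2, with 1.63 in differentiated minus primed (limma adjusted p = 0.421). The primed CMK9 value of EPHA2 enters this last estimate.

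**Figure D3:**
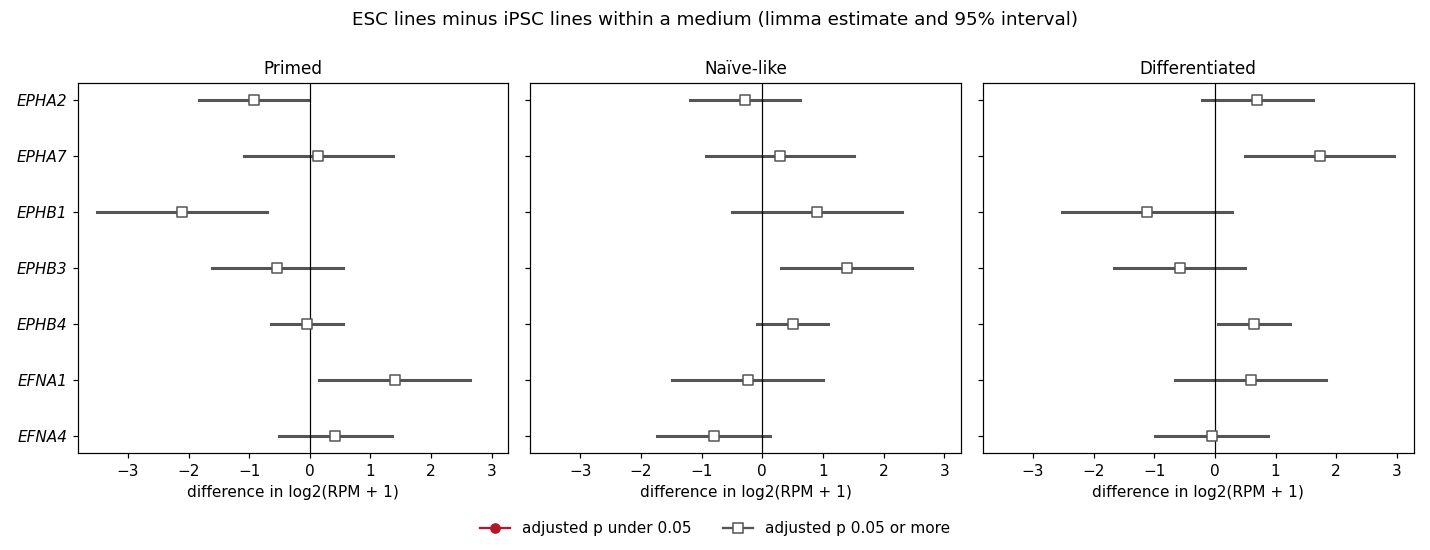
ESC minus iPSC difference of the 7 tested members within each medium, 3 ESC against 4 iPSC lines, as limma estimates on the log2(RPM + 1) scale with 95% intervals. None of the 21 differences has an adjusted p under 0.05. Before adjustment, the primed intervals of EPHB1 and EPHA2 lie below 0. Those of EFNA1 in primed, EPHB3 in naïve-like, and EPHA7 and EPHB4 in differentiated cells lie above 0.

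The cultured liver and stomach cells, 1 library each, allow no test. Of the 7 tested members, liver lay below the range of the 21 PSC libraries for EPHA2 and EPHA7 and above it for none, while 25.9% of 2916 genes lay below and 11.5% above. These 2916 genes were above 4 on the log2 scale in at least 1 of all 23 libraries. Those that entered only through a somatic library lay above the PSC range there by this choice. The stomach library was outside the range for none, where 23.9% of genes lay below and 15.3% above. EPHA2 was at 10.6 RPM in liver and 40.2 in stomach. EPHA7 was at 0 in liver and 3.57 RPM in stomach, and the lowest PSC library, naïve-like CMK6, had 2.42 RPM. EPHA3 was at 13.5 RPM in liver and 5.84 in stomach. The liver value was near the highest PSC library (13.8 RPM) and above the other 20. EPHA1, EPHB1 and EPHB2 were at 0 in both. EPHB3 was at 12.9 RPM in liver and 3.89 in stomach, EPHB4 at 13.5 and 28.9, EFNA1 at 2.35 and 11.3, and EFNA4 at 5.87 and 12.3. These libraries also held 5573 and 5095 RPM of 4 mesenchymal genes, against 11.7 to 599 RPM in PSCs. COL1A2 (4832 and 4506 RPM) and S100A4 (719 and 573 RPM) carried these sums, and PDGFRA was at 21.1 and 9.73 RPM. TWIST1 went the other way, at 0.587 RPM in liver and 5.84 in stomach. Its medians were 7.08, 25.4 and 6.66 RPM in primed, naïve-like and differentiated libraries. The part of cell type in the differences was not tested.

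Other genes of the family that were analysed were EFNA3, EPHA5, EPHA6, EPHA8, EPHA10 and EPHB6, and none of the 6 passed the filter. EPHA10 was at 0 in all libraries. EPHB6, a receptor without kinase activity, was at 8.22 RPM in liver and 5.84 in stomach, and its highest PSC value was 6.47 RPM in primed iPS-L3. The receptor EPHA4 and the ligands EFNA2, EFNA5, EFNB1, EFNB2 and EFNB3 were not analysed here, so ligands of the EphB receptors are outside these data.

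Of 74 genes listed for Eph and ephrin signalling inside cells, 21 were analysed and 18 passed the filter. From primed to naïve-like 1 rose and 2 fell, from naïve-like to differentiated 1 rose and 2 fell, and from primed to differentiated 1 rose and 2 fell. Beside these counts stand the shares of all tested genes given above, 11.1% higher and 8.18% lower, 6.41% and 7.71%, and 6.27% and 7.13%. Their median difference was -0.26, -0.0018 and -0.19, and that of all tested genes 0.06, -0.02 and 0.05. KALRN, a guanine nucleotide exchange factor that acts in EphB signalling at dendritic spines, had means of 4.60 ± 0.59, 2.38 ± 0.69 and 1.45 ± 1.11 in primed, naïve-like and differentiated libraries (SD, n = 7). It fell by 2.23 in naïve-like (limma adjusted p = 0.00109) and fell by 3.15 in differentiated cells (limma adjusted p = 5.03e-05) against primed. It passed the filter only through 5 primed libraries, and with no filter the adjusted p was 0.0038 and 0.000337. GRB10, an adaptor that binds receptor tyrosine kinases, had means of 5.73 ± 0.36, 6.47 ± 0.36 and 5.87 ± 0.29. It rose by 0.75 from primed to naïve-like (limma adjusted p = 0.00521) and fell by 0.60 to differentiated (limma adjusted p = 0.0244). CHN2, a Rac GTPase-activating protein, rose by 1.86 from naïve-like to differentiated (limma adjusted p = 0.0420) and by 1.86 against primed (limma adjusted p = 0.0425). Its means were 0.43 ± 0.54, 0.43 ± 0.55 and 2.30 ± 1.71. It was tested only through 1 differentiated library, and with no filter the adjusted p was 0.050004, just above the threshold, and 0.0540. NCSTN, a subunit of gamma-secretase, fell by 0.36 in naïve-like against primed (limma adjusted p = 0.0343). TIAM1, a Rac exchange factor, fell by 0.67 from naïve-like to differentiated (limma adjusted p = 0.0325), and VAV3, another exchange factor, fell by 1.20 from primed to differentiated (limma adjusted p = 0.0463). VAV3 passed the filter in no differentiated library. With no filter the adjusted p was 0.0539 for TIAM1 and 0.103 for VAV3. None of the 5 GTPase and cytoskeleton genes and the 2 phosphatase and turnover genes tested was called in any of these 3 comparisons. These genes serve many receptors besides the Eph family.

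Across the 21 PSC libraries, which share media and lines, the tested genes whose values followed those of a member most closely were described by Pearson's r. For EPHA2 they were ARHGAP29 (r = 0.91) and AMOTL2 (r = 0.91), and for EPHA7 BOC (r = 0.92) and SYT11 (r = 0.86). For EFNA1 they were HSPB1 (r = 0.82) and HIBADH (r = 0.80), and for EPHB4 SLC35A3 (r = 0.77) and CEP350 (r = 0.76). EPHB1 was nearest to CLSTN2 (r = 0.75), EPHB3 to TAX1BP1 (r = 0.74) and EFNA4 to CCDC24 (r = 0.70). Between members, r ran from -0.56 for EPHB1 with EFNA1 to 0.52 for EPHB3 with EFNA1. No pair of members exceeded 0.52, and the lowest values were negative.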

How the data were processed

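SC3-seq libraries had been made from total RNA (1 ng) to which spike-in RNA was added. The authors deposited RPM, mapped reads scaled to a fixed library total, in a column for each library, without pooling. The submitters' processing notes name cutadapt 1.3, TopHat 1.4.1 and Cufflinks 2.2.0. The most frequent non-zero value of each library was taken as the RPM of 1 read, which gave the depth. On that basis 86.7% to 92.9% of non-zero values per library were whole numbers of reads (within 0.02 reads). Count tests were not used because the rest were not. The genes analysed here hold 24.8% to 27.5% of each library, and 1 row with missing values was left out. Gene symbols came from the file, or by gene ID from the RefSeq annotation.

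Libraries were grouped by medium, line and kind from their labels. All 21 PSC libraries were fitted together on log2(RPM + 1) with limma 3.58.1 in R 4.3.3 with a mean-variance trend. Fold changes on this scale understate those of low genes. The script was tested on simulated data. The members and lists were chosen with earlier results of these data known. Genes named are the 10 members, other family genes, listed pathway genes that passed the test and, per tested member, the genes with the highest correlation. Lines are the same cells in each medium by their labels, and deviations from group means correlated by 0.269 on average between libraries of 1 line (21 pairs) and by -0.0446 between lines. Alternatives were a pseudocount of 0.1, no filter or a stricter one, other scalings, no trend, line as a block, 2 conditions in the fit, and lines or single libraries left out. Library numbers run by medium, so a preparation batch, if any, and the medium cannot be told apart.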

Additional observations from a re-analysis of the deposited data

Results flagged for a closer look

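EPHA2 in primed CMK9 was far below the other 6 primed lines, at 16.8 RPM from 134 reads. Its gap to the next line was 0.678 of the range of the group, above the critical value of Dixon's test at the 95% level for 7 values. EPHB4 in differentiated iPS-S6 was flagged likewise as the lowest of its group, at 11.7 RPM from 11 reads, with a gap of 0.622 of the range. Of 29 groups of 7 tested this way 2 were flagged, and chance alone would flag about 1.45.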

How the results depend on the processing

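For naïve-like against primed, the count of 2 members called became 1 with no filter and 1 with a stricter filter (7 PSC libraries), and 1 to 2 when each line was left out. For differentiated against naïve-like it was 1 to 3 over the lines left out, and 1 without the differentiated iPS-S6 library. For differentiated against primed it was 1 with the stricter filter and 1 to 4 over the lines left out, 4 being without CMK9. With the cell line as a replicate block this last count was 3, EPHA7 having joined. EPHA1, fitted without the filter, also crossed the threshold under the block in differentiated against primed, and no other call between media changed under it. The stricter filter left 5 members to test, without EPHB1 and EPHB3. Leaving out line iPS-L6 left 6, without EPHB1. Against the range of the 7 primed libraries alone, 5 members lay outside in liver and 2 in stomach, and when at least 1 beyond the PSC range on the log2 scale was asked, 1 did in liver. EPHA2 against primed and EPHA7 against naïve-like kept their calls under every alternative run. Signs reversed only for differences that were not called: EPHB1 naïve-like minus primed was 0.055 without primed iPS-S12 and naïve-like CMK6, EPHB3 differentiated minus naïve-like ran from -0.45 without line iPS-L6 to 0.14 without CMK6, EPHB4 differentiated minus primed from -0.33 without CMK6 to 0.0047 without iPS-S6, and EPHB2 in that comparison from -0.0057 without iPS-S12, through -0.00032 without CMK9, to 0.12 without iPS-L3. The causes were not tested. EPHA7 in differentiated against primed also passed with quantile normalization (adjusted p = 0.0371, limma), with 2 conditions in the fit (0.0430) and without primed iPS-S12 and naïve-like CMK6 (0.0281), and EPHA1 in that comparison passed with a pseudocount of 0.1 (0.0182) and with no trend (0.0466). With quantile normalization EPHA1 did not pass in that comparison (limma adjusted p = 0.0637). The ESC and iPSC counts stayed at 0 under the alternatives run for them. The block could not be fitted for the differences between ESC and iPSC lines within a medium, since each line is of 1 kind, and it was fitted for the interactions. The fits without the primed CMK9 or differentiated iPS-S6 library, the other settings for members below the filter, and the values of pathway genes with no filter, were chosen after seeing the data. With 1 library per line and medium, p-values rest on the spread between lines, and depth leaves EPHA1, EPHA3, EPHB1 and EPHB2 on few reads. EPHB3 in naïve-like iPS-L6 and EFNA1 in differentiated iPS-L3 and iPS-S6 were also under 3 reads.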
